A study of Mus musculus with 2 samples.

Results

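The 4422 regions described here are the differentially methylated regions that lie 100000 bases or more from the nearest protein-coding gene span on chromosomes 1 to 19 of the mouse. They were chosen by position from the 27774 regions that the authors listed on those chromosomes, of which they make up 15.9%. Methylation levels do not enter that rule, but every listed region had been called as different between the libraries. The rule was set with earlier results of these data known. Gene spans were those of RefSeq on GRCm38.p6, the assembly of mm10. Whole-genome bisulfite sequencing had been run on 1 library of PDGFRα+ (CD140+) cells and 1 library of CD137+ cells, both magnetically sorted adipose progenitors of C57BL/6 mice, from fat labelled SAT or VAT. Both populations were differentiated with an adipogenic cocktail and then given 1 µM dexamethasone, a synthetic glucocorticoid, so every value comes from glucocorticoid-treated cells. PDGFRα is a growth factor receptor of mesenchymal progenitors, and CD137 is a receptor used to sort precursors of beige fat cells. RNA was not measured in these libraries, so the sorted identities could not be checked against marker expression.

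Long stretches of the genome without protein-coding genes are called gene deserts. Many of them hold enhancers, long non-coding RNAs (lncRNAs) and microRNAs, and deserts that flank genes of developmental regulators are known for enhancers that act over long distances. In vertebrate DNA most methylation sits on the cytosine of a CG pair, and active enhancers are commonly less methylated than their surroundings. The regions in deserts therefore show how distant, mostly intergenic DNA differed between the treated cells differentiated from both progenitor populations.

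The cytosines counted in the listed regions are those of CG pairs, read on both strands. Where a region's edge lay inside a RefSeq sequence window around a gene start, the first base was the C or the G of a CG pair in 249 of 249 regions and the last base in 237 of 237. This holds when the listed start counts from 0, so starts are given here 1 base higher than listed, as a genome browser shows them. In 88 of 88 regions lying wholly inside such a window, the listed cytosines numbered at most 2 per CG pair, with a median of 1.60.

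Sequence is shown for the distant regions that cover the start of an lncRNA, because there the differing DNA itself can be read. RefSeq windows run from 250 bases before to 50 bases after a gene start, on GRCm38.p6, and 47 of the 4422 regions overlapped one, at 45 lncRNA genes. The shared bases are given for the 3 lower and the 2 higher regions with the largest statistic of the authors' region caller among those with at least 100 shared bases. They read 5′ to 3′ along the transcribed strand, and capitals mark CG pairs, the kind of site whose methylation was measured. Which of the marked pairs were measured is not known here, because only a count of cytosines is given per region.
Gm40436: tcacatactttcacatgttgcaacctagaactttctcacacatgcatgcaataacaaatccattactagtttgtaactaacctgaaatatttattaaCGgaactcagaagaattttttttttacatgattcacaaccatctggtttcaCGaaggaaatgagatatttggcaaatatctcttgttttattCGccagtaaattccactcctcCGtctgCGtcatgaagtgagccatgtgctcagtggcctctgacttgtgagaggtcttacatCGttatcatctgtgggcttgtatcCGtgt
Gm34061: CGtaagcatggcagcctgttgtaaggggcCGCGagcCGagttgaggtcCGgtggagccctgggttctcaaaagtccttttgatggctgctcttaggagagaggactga
Gm33321: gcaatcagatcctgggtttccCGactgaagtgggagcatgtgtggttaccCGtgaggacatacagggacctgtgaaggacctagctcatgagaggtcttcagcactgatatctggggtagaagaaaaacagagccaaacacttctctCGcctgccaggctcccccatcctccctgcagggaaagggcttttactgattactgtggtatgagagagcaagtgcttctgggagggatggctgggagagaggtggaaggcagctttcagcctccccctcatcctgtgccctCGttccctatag
Gm32865: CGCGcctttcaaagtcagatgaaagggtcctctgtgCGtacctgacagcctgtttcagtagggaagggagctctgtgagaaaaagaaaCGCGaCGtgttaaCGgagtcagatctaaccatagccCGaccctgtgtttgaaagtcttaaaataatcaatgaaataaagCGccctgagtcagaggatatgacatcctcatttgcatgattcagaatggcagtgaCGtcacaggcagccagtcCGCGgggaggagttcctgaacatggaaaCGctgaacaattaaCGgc
9230102K24Rik: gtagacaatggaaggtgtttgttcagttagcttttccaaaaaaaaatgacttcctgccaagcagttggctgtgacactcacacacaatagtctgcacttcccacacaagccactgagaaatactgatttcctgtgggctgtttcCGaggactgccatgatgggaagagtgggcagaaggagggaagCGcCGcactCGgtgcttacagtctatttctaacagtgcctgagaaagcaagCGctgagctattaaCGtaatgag

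The stretch of Gm40436 is chr12:70590336-70590635 on the plus strand, in the desert from Tmx1 to Frmd6. Its region had a methylation level, a fraction between 0 and 1 as the authors give it, of 0.0995 in PDGFRα+ cells and 0.892 in CD137+ cells. That of Gm34061, chr14:99578408-99578515 on the plus strand, lies between Klf5 and Klf12, a pair of Krüppel-like transcription factor genes. Its region had levels of 0.292 in PDGFRα+ cells and 0.950 in CD137+ cells. Gm33321, chr14:58300552-58300851 on the plus strand, lies in a region 187 kb from Fgf9, a fibroblast growth factor gene, that had levels of 0.163 and 0.667 in PDGFRα+ and CD137+. In these 3 regions the PDGFRα+ library was the less methylated. The level given for each start, here and below, is an average over the whole region, not over the shown bases alone. The region of Gm34061, for example, has 585 bases, of which 108 are shown.

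The order was the other way round at Gm32865, chr16:87128390-87128675 on the minus strand, in the desert between the matrix protease gene Adamts5 and N6amt1, with levels of 0.830 in PDGFRα+ cells and 0.457 in CD137+ cells. At 9230102K24Rik, chr10:110600440-110600699 on the plus strand, between Nav3 and the cell cycle transcription factor gene E2f7, the levels were 0.942 in PDGFRα+ cells and 0.398 in CD137+ cells. The windows of Gm40436, Gm34061, Gm33321, Gm32865 and 9230102K24Rik held 7, 8, 4, 14 and 7 CG pairs, where the median over the 11588 lncRNA windows was 4. A CG pair was present in 93.1% of lncRNA windows and in 94.6% of all 32851 windows. At least as many pairs as in Gm32865 were present in 13.1% of lncRNA windows, and at least as many as in Gm33321 in 54.9%.

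A pair of microRNA clusters, each with a miR-99/100, a let-7 and a miR-125b gene, lies in deserts with many of these regions, one on chromosome 9 inside the lncRNA gene Mir100hg and the other on chromosome 16 beside Mir99ahg. Their mature microRNAs, from RefSeq on GRCm38.p6, are shown because distant regions lie close to each hairpin. Capitals mark the seed, bases 2 to 8, which pairs with target transcripts.
miR-100-5p, chromosome 9: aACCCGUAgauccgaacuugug
miR-99a-5p, chromosome 16: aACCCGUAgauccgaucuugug
let-7c-5p, chromosome 16: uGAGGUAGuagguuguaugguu
miR-125b-5p, chromosomes 9 and 16: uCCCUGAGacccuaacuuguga

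miR-99a-5p and miR-100-5p share a seed and differ by a single base, U16A, counted from the 5′ end with the base of miR-99a first. miR-125b-5p is the same in the genes Mir125b-1 and Mir125b-2. Mirlet7a-2 is the let-7 gene of the chromosome 9 cluster.

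Most distant regions were less methylated in PDGFRα+ cells. Of the 4422, 3870 (87.5%, 95% Wilson interval 86.5 to 88.5) were lower in the PDGFRα+ library and 552 (12.5%) were higher, a ratio of 7.01. Over all 28141 listed regions the share that was lower is 77.7% and the share that was higher 22.3%. Among the 23352 regions closer to protein-coding genes, 17711 (75.8%, 75.3 to 76.4) were lower, a ratio of 3.14. The higher share of lower regions in deserts held on 19 of 19 chromosomes, ranging from 82.7% to 92.4% for the distant regions and from 71.3% to 78.7% for the closer ones. With 1 library per group there is no replicate error, so no test between the libraries was made, and the intervals cover counting error over regions only and treat neighbouring regions as independent. A level is an average over the cells of a library, so a different mixture of cells and a different level in each cell cannot be told apart.

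The levels themselves were much alike in distant and in closer regions. In distant regions that were lower, the median level was 0.254 in PDGFRα+ cells (interquartile range 0.169 to 0.351) and 0.806 in CD137+ cells (0.731 to 0.870). In closer regions that were lower, the medians were 0.263 in PDGFRα+ cells and 0.822 in CD137+ cells. In distant regions that were higher, the median level was 0.884 in PDGFRα+ cells and 0.355 in CD137+ cells, against 0.878 and 0.343 in closer regions. Distant and closer regions thus differed in the share that went each way more than in the levels reached. Differences of at least 0.6 made 912 of the 4422 distant regions lower (20.6%, with 19.2% over all listed regions) and 97 higher (2.19%, with 4.19% over all listed regions). Only regions called by the authors are listed, and 25 distant ones had an absolute difference under 0.3.

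**Figure D1:**
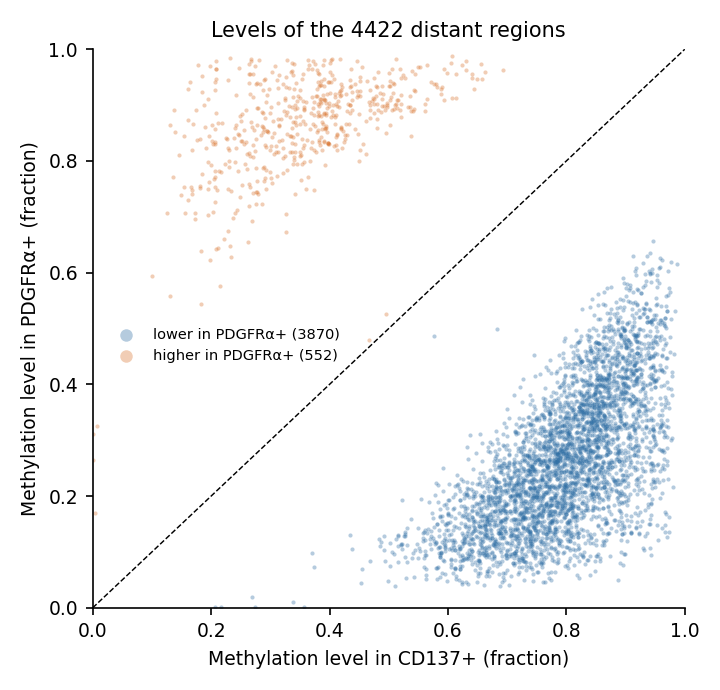
Methylation level of each of the 4422 distant regions in PDGFRα+ cells (vertical axis, fraction) against CD137+ cells (horizontal axis, fraction), 1 point per region and 1 library per axis. The 3870 lower regions form 1 cloud below the dashed line of equal levels, the 552 higher ones a smaller cloud above it, and few points lie between them, 25 with an absolute difference under 0.3; the table lists only regions called as different.

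Outside gene spans, the share of lower regions rose in steps with distance from genes, up to 1 Mb. Regions inside a protein-coding gene span were lower in PDGFRα+ in 75.2% of 14601 cases, and regions outside but under 10 kb away in 70.6% of 2504. The share was 77.9% at 10 to 50 kb and 82.9% at 50 to 100 kb. Beyond the 100 kb limit it was 84.9% (83.3 to 86.3) at 100 to 200 kb, 89.2% (87.7 to 90.6) at 200 to 500 kb and 92.7% (89.7 to 94.8) at 500 kb to 1 Mb. For the 107 regions at 1 Mb or more it was 91.6% (84.8 to 95.5), an interval that overlaps that of the step before. The limit of 100 kb thus falls within a gradual rise of the share, which single regions beside the limit cannot show. The last region outside lay 99984 bases from Ctnna2, with levels of 0.175 in PDGFRα+ cells and 0.895 in CD137+ cells. The region nearest inside lay 100152 bases from Mpdz, with levels of 0.840 in PDGFRα+ cells and 0.226 in CD137+ cells.

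**Figure D2:**
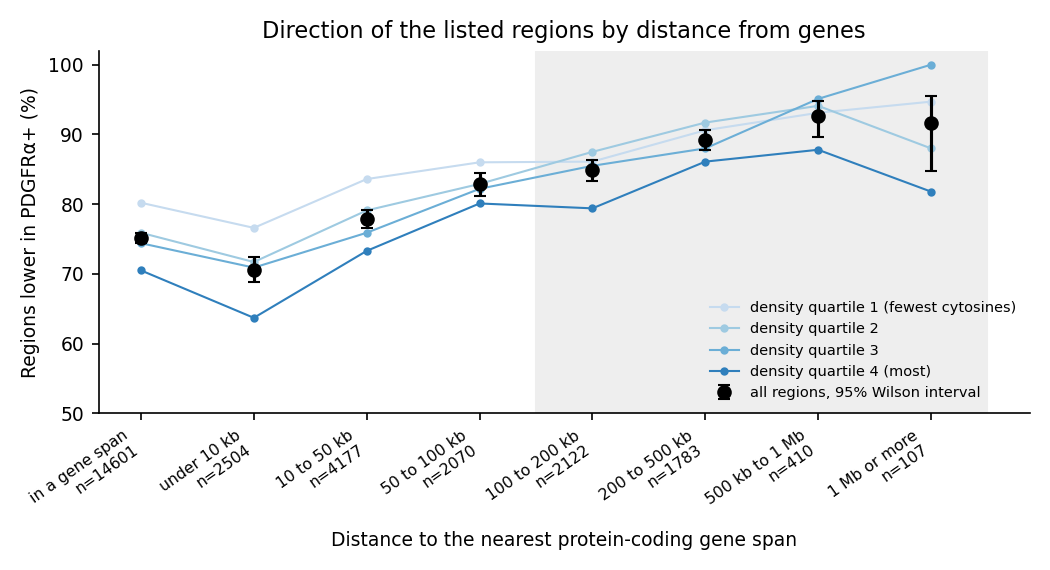
Share of listed regions that were lower in PDGFRα+ (vertical axis, %, starting at 50) by distance to the nearest protein-coding gene span (classes on the horizontal axis, with the number of regions), the distant regions on grey. Black points are all regions with 95% Wilson intervals, from 70.6% under 10 kb to 92.7% at 500 kb to 1 Mb. Blue lines are quartiles of cytosine density, which in the last class rest on 22 to 38 regions each.

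Distant regions were slightly poorer in listed cytosines. Cytosines of CG pairs that were not listed are not counted, so whether the sequence itself differs was not tested. Their median density was 4.35 listed cytosines per 100 bases (95% interval of the median 4.27 to 4.43), against 4.68 (4.64 to 4.72) in closer regions. Counting both strands, all cytosines over all bases gave 4.11 per 100 bases in distant and 4.37 in closer regions. Length and cytosine number were alike, with medians of 220 and 216 bases and of 9 cytosines in both classes. Distant regions covered 1148 kb and 47250 cytosines in all, and ran from 51 to 1644 bases. Within the distant regions, those lower in PDGFRα+ had a median density of 4.29 and those higher 4.96, and in closer regions the medians were 4.58 and 5.07.

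The greater share of lower regions in deserts was present at each density. The listed regions were divided at the quartiles of density, 3.32, 4.62 and 6.59 per 100 bases. In the poorest quartile 89.0% of 1266 distant regions were lower, against 81.0% of 5684 closer ones. In the next quartiles the shares were 89.7% against 76.6% and 87.6% against 75.0%. In the richest quartile, 82.9% of 996 distant regions were lower (80.5 to 85.1), against 71.1% of 5931 closer ones (69.9 to 72.2). In each quartile the intervals of distant and closer regions did not overlap.

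**Figure D3:**
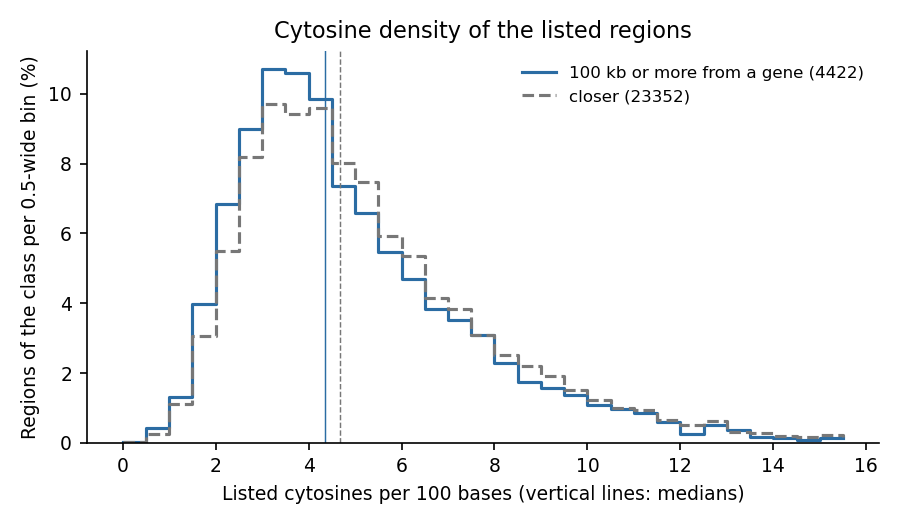
Distribution of cytosine density in the 4422 distant regions (solid) and the 23352 closer ones (dashed), as the percentage of each class per bin, with medians of 4.35 and 4.68 per 100 bases as vertical lines. The curves overlap almost entirely, and 0.520% of distant and 0.805% of closer regions lie beyond the right edge at 16.

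In 10 distant regions, the level of 1 library was under 0.02, and such regions were dense in CG pairs. They had 10.3 to 56.5 cytosines per 100 bases, with a median of 23.4, and 6 of them were lower and 4 higher in PDGFRα+. The 90 cytosines of a region between Cntnap5b and the cadherin gene Cdh20, chromosome 1 from 102182686 to 102183108, had a level of 0.00970 in PDGFRα+ cells and 0.338 in CD137+ cells. A region between Agtr1b and the corepressor gene Tbl1xr1, chromosome 3 from 21502656 to 21502894, had levels of 0.00100 in PDGFRα+ cells and 0.274 in CD137+ cells. The opposite was listed between the collagen-modifying enzyme gene Plod2 and Dipk2a, chromosome 9 from 92729689 to 92729986, with 0.325 in PDGFRα+ cells and 0.00650 in CD137+ cells. That region had the largest positive statistic of all distant regions. This kind made up 0.226% of distant and 0.283% of closer regions.

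The largest negative statistic belonged to a region 106 kb from Hand2, a transcription factor gene of heart and limb development (chromosome 8, 57213927 to 57214878), with levels of 0.228 in PDGFRα+ cells and 0.846 in CD137+ cells over 59 cytosines. A region of 62 cytosines between Nphp4 and Ajap1 had levels of 0.195 in PDGFRα+ cells and 0.860 in CD137+ cells. A region 221 kb from Tcf4, which encodes a basic helix-loop-helix transcription factor, had levels of 0.124 in PDGFRα+ cells and 0.801 in CD137+ cells. A region 259 kb from Slc30a5, in the desert that ends at the phosphoinositide 3-kinase subunit gene Pik3r1, had levels of 0.157 in PDGFRα+ cells and 0.777 in CD137+ cells. Others of the 10 with the largest negative statistics lay in the deserts Gm44812 to Mctp2, Prkd1 to G2e3 and Usp25 to Cxadr, with PDGFRα+ levels of 0.0944 to 0.190 and CD137+ levels of 0.707 to 0.812.

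Among the regions with the largest positive statistics, one 127 kb from Insig2, a gene of sterol regulation, had levels of 0.845 in PDGFRα+ cells and 0.196 in CD137+ cells (chromosome 1, 121177079 to 121177627). A region 150 kb from Fgfr2, a fibroblast growth factor receptor gene, had levels of 0.944 in PDGFRα+ cells and 0.290 in CD137+ cells. A region 143 kb from Dkk2, which encodes a secreted modulator of Wnt signalling, had levels of 0.794 and 0.346 in PDGFRα+ and CD137+. Others lay between Tnks and Ppp1r3b (0.911 in PDGFRα+ cells and 0.385 in CD137+ cells) and between Gm9376 and Abcc4 (0.933 and 0.481 in PDGFRα+ and CD137+). The region between Nxph1 and Ndufa4 had 0.940 in PDGFRα+ cells and 0.278 in CD137+ cells although it lay 1209 kb from the nearest protein-coding gene. A region 195 kb from Jarid2 had 0.806 and 0.271 in PDGFRα+ and CD137+ cells, and one 130 kb from Setd4, in the desert of Runx1, had 0.846 and 0.285. The region between Kcnc2 and Atxn7l3b was among those with 1 library near 0 (0.311 in PDGFRα+ cells and 0.00130 in CD137+ cells). The region farthest from any protein-coding gene, 2130 kb from Pcdh17 on chromosome 14, had 4 cytosines and levels of 0.0868 in PDGFRα+ cells and 0.633 in CD137+ cells.

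The deserts were taken as the stretches between neighbouring protein-coding gene spans that reach more than 100 kb from both. There were 1393, with 680 Mb of distant DNA, or 28.0% of the length from the first to the last protein-coding gene of the chromosomes. Distant DNA held 6.50 listed regions per Mb, against 14.8 per Mb of gene span and 11.4 per Mb of the DNA between. In proportion, the gap was wider for regions higher in PDGFRα+ (0.811 per distant Mb against 3.69 per Mb of gene span). For lower ones it was 5.69 against 11.2, a wider gap in regions per Mb but a smaller one in proportion. Regions lay in 946 of the deserts, with a median of 3 in these, and 220 deserts held a single one. The other 2 distant regions lay beyond the first or last protein-coding gene of a chromosome. The 121 deserts with at least 10 regions held 37.7% of all distant regions.

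Most well-filled deserts leaned towards lower regions, as did distant regions at large, of which 87.5% were lower. The counts per desert were not compared with what that share alone would give. In 140 of 349 deserts with at least 5 regions every region was lower in PDGFRα+, in 0 every region was higher, and in 3 the higher ones prevailed. Among the 121 with at least 10 regions, 26 were lower in each region and none leaned to higher. Neighbouring regions of the same desert less than 1 kb apart went the same way in 195 of 203 pairs (96.1%), those 1 to 10 kb apart in 367 of 490 (74.9%), those 10 to 100 kb apart in 78.4% of 1888 and those 100 kb or more apart in 83.7% of 893. Over all such pairs, 2789 of 3474 (80.3%) went the same way, and only those under 1 kb apart stood far above that share. Because most distant regions were lower, unrelated regions would also often go the same way. Where a pair under 1 kb apart had a higher region, both were higher in 25 of 33 pairs, and at 100 kb or more in 4 of 150. Among closer regions, 365 of 451 pairs under 1 kb and 254 of 1917 pairs at 100 kb or more were both higher. Regions under 1 kb apart may be parts of a single region that the caller divided.

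The 15 deserts with most regions held 331 of them (7.49%), of which 291 (87.9%) were lower in PDGFRα+. The most, 30, lay in the 3.70 Mb between Zeb2, a zinc finger repressor gene of mesenchymal and neural crest development, and the activin receptor gene Acvr2a (chromosome 2, from 45117442 to 48814109). Of these, 25 were lower, with median levels of 0.326 in PDGFRα+ cells and 0.846 in CD137+ cells. The other 5 were higher, with medians of 0.899 in PDGFRα+ cells and 0.260 in CD137+ cells, and the widest difference of the desert was among them (0.942 in PDGFRα+ cells and 0.164 in CD137+ cells, 742 kb from Zeb2). The adhesion receptor genes Adgrl2 and Adgrl4 bound a desert on chromosome 3 with 28 regions, 20 lower and 8 higher, of which 25 lay nearer to Adgrl2. On the other side of Adgrl2, towards the tubulin-modifying enzyme gene Ttll7, 20 of 22 regions were lower, and 16 lay nearer to Adgrl2.

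The next of these deserts lies between Cd83, a surface protein gene of antigen-presenting cells, and Jarid2, which encodes a partner of Polycomb repressive complex 2, with 20 of 25 regions lower. Its 5 higher regions had median levels of 0.838 in PDGFRα+ cells and 0.320 in CD137+ cells, and 4 of them, 732 to 779 kb from Cd83, lay in the part nearer to Jarid2. Those at 779 kb lay less than 1 kb apart and may be parts of a single region. Between Nox3 and Arid1b, a gene of a SWI/SNF chromatin remodelling subunit, 22 of 25 were lower (medians of these 0.227 in PDGFRα+ cells and 0.770 in CD137+ cells). Between Runx1, which encodes a transcription factor needed for blood stem cells, and Setd4, 21 of 23 were lower, with medians of 0.262 in PDGFRα+ cells and 0.785 in CD137+ cells. In this desert the lowest PDGFRα+ level was 0.114 (CD137+ 0.637, 253 kb from Runx1), and a region of 30 cytosines over Mir802 had levels of 0.401 in PDGFRα+ cells and 0.896 in CD137+ cells. Between Foxo1, the forkhead factor gene of insulin signalling, and Cog6, 15 of 19 were lower. Between Med13l, of the Mediator complex, and the T-box gene Tbx3, 19 of 19 were lower, with PDGFRα+ levels from 0.156 to 0.525 and CD137+ levels from 0.642 to 0.962.

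Genes of signalling and of other functions flank the remaining deserts of the 15. Between the fibroblast growth factor gene Fgf9 and 1700129C05Rik, 18 of 18 regions were lower, with PDGFRα+ levels from 0.154 to 0.416 and CD137+ levels from 0.646 to 0.946, and 14 lay nearer to Fgf9. Between the ephrin receptor gene Epha7 and Map3k7, which encodes the kinase TAK1, 20 of 20 were lower, with PDGFRα+ levels from 0.0701 to 0.431 and CD137+ levels from 0.455 to 0.907. In these deserts and in the one beside Tbx3 the levels of both libraries did not overlap. Every region in them was lower and had been called as different, so separate ranges are favoured by that choice. The other deserts were Tmpo to Nedd1 (20 of 21 lower), Plekhb2 to Hs6st1 (18 of 20), Plpp3 to Usp24 (17 of 20) and Gm44812 to Mctp2 (15 of 19).

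**Figure D4:**
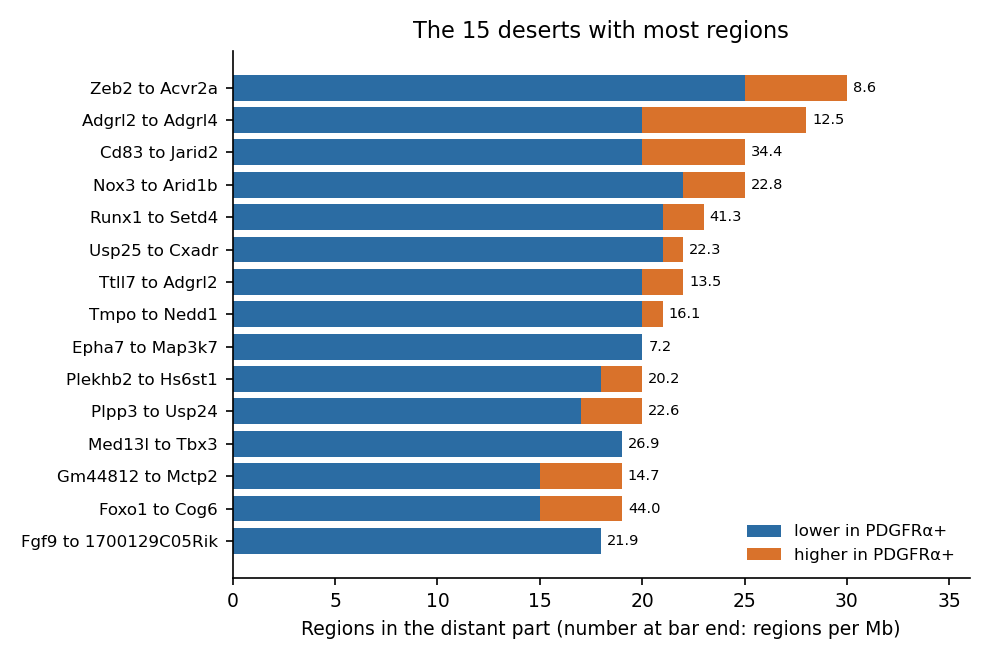
Number of regions in the distant part of the 15 deserts with most (horizontal axis), named by their flanking genes, with lower (blue) and higher (orange) regions stacked and the number per Mb at the bar's end. Lower regions prevail in each desert, and the deserts of Epha7, Med13l and Fgf9 have no higher region.

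**Figure D5:**
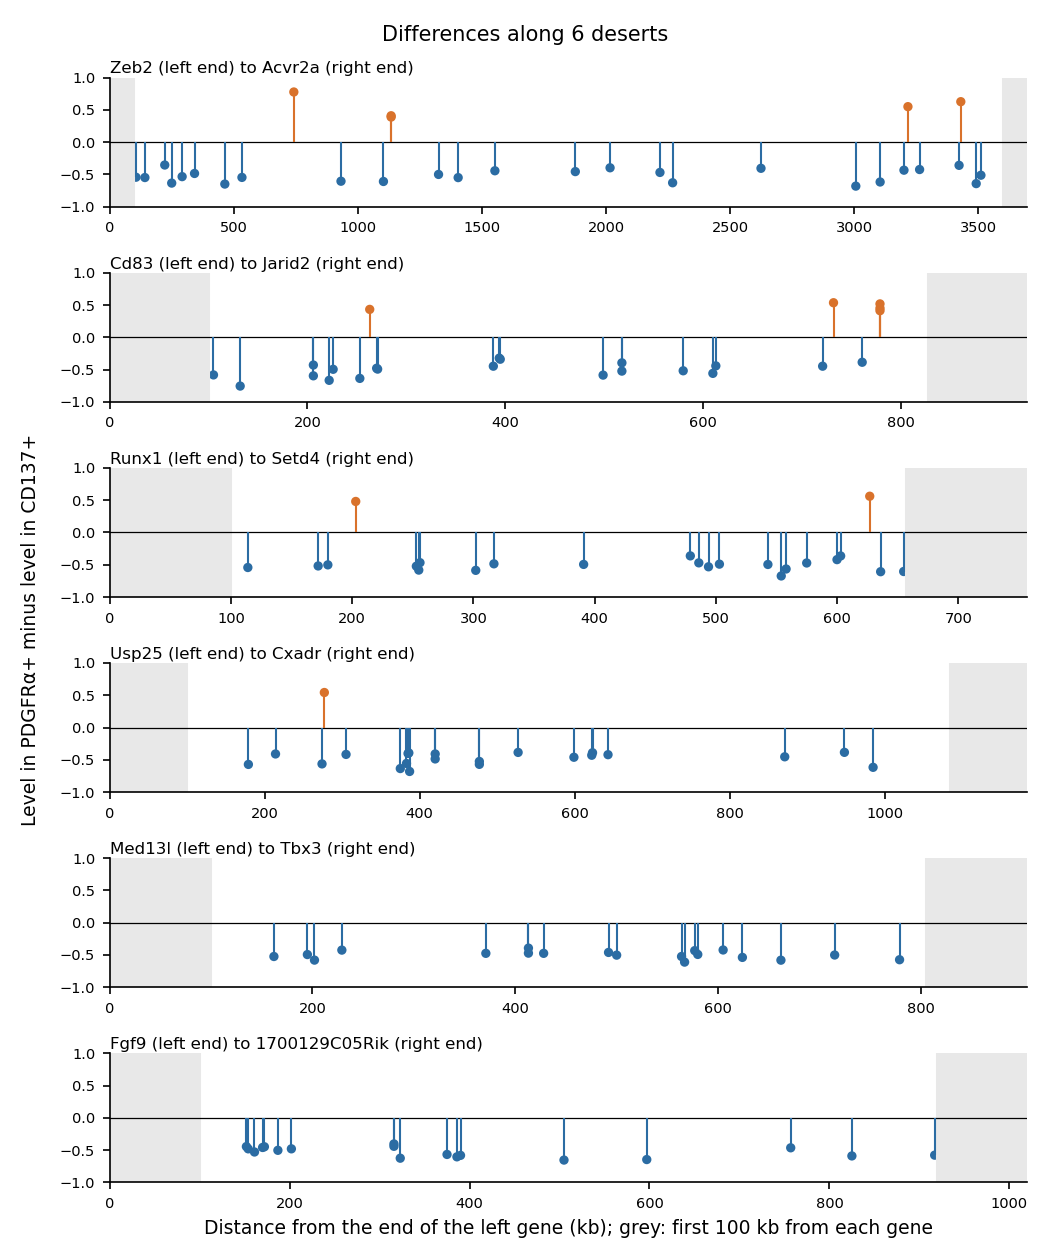
Difference in level, PDGFRα+ minus CD137+ (vertical axis, fraction), of each region along 6 of the 15 deserts, by distance from the end of the left gene (horizontal axis, kb). Grey marks the 100 kb next to each gene, which holds no distant region by definition. The 19 and 18 regions beside Tbx3 and Fgf9 all point down, while 4 of the 5 higher regions between Cd83 and Jarid2 stand near the Jarid2 end. Some of these 4 lie less than 1 kb apart and may be parts of a single region.

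Per Mb, the fullest of the 197 deserts with at least 1 Mb of distant DNA was Nox3 to Arid1b (22.8), where the median was 2.82. Among those that followed were the deserts of the pluripotency factor gene Klf4 with Actl7b (17.9, with 12 of 18 regions lower), Tmpo with Nedd1 (16.1) and Gm44812 with Mctp2 (14.7). Of these 197, 17 held no region. In 9 of the 17, the 5 longest included, the left gene is annotated in the first 1 Mb of the chromosome, near the centromere end that the assembly leaves unsequenced. Whether those genes lie there or on unplaced sequence was not checked, so these stretches may not be true gaps between genes. Without the 12 stretches of all lengths that begin there, with 20.4 Mb and 0 regions, the distant DNA held 6.70 regions per Mb. The longest empty ones elsewhere were Ythdf3 to Cypt12 (1.73 Mb), Atxn7l3b to Trhde (1.47 Mb) and Ppp6c to Lrp1b (1.37 Mb).

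Grouped by the kind of gene beside them, deserts differed more in how many regions they held than in direction. Deserts beside developmental transcription factor genes held 11.6 regions per distant Mb, against 6.50 over all deserts, and 678 of their 777 regions (87.3%, 84.7 to 89.4) were lower. Deserts beside adhesion and synapse genes, which are longer and sparser, held 3.38 per Mb, and 411 of 446 (92.2%, 89.3 to 94.3) were lower. Over all deserts 87.5% were lower. Because that share also rose with distance from genes, gene family and distance were not told apart here. Examples are Got2 to the cadherin gene Cdh8 (16 of 17 lower, in 3.14 Mb) and Cdh26 to 4930591A17Rik (14 of 15). Beside genes of secreted signals, grouped by symbol and including membrane-bound ligands such as ephrins, there were 7.45 per Mb, with 158 of 175 lower (90.3%, 85.0 to 93.8). Among them were 15 of 17 between Lcorl and the guidance cue gene Slit2, 12 of 15 between Nudt12 and the ephrin gene Efna5, and 10 of 11 between Lyplal1 and Tgfb2. Beside odour and pheromone receptor genes, 2 of 17 deserts held a region, 5 regions in all and 5 lower. Deserts beside none of these families held 6.62 per Mb, and 86.7% of their 3018 regions were lower. A desert with genes of different families at its ends counts in each of them.

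Few cell type markers flank a desert. Their counts stand beside the 87.5% of all distant regions that were lower, and none was tested against that share. Of 11 leukocyte markers, Runx1 and Ptprc do, and their deserts held 32 lower and 4 higher regions. Of 6 endothelial markers, Cdh5 and Kdr do, with 11 lower and 3 higher. Of 7 mesenchymal progenitor markers, Dcn and Pdgfra do, with 7 lower and 0 higher, and the distant region nearest to Pdgfra, 191 kb away towards Kit, had levels of 0.309 in PDGFRα+ cells and 0.847 in CD137+ cells. None of the mural (6), mesothelial (4) or adipocyte (6) markers bounds a desert with a distant region. For Tnfrsf9, the gene of CD137, the nearest distant region lay 1741 kb away.

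Of 55 genes with at least 4 regions of their own beside a desert with at least 10, 12 held more higher than lower regions. None of the deserts with at least 10 regions had more higher than lower ones, so the deserts beside these genes could hardly lean the same way. Tcf4 had 16 of 17 regions inside the gene higher in PDGFRα+ (mean level 0.849, against 0.407 in CD137+), while 14 of 15 regions in the desert from Mc2r to Tcf4 were lower (median of the lower ones 0.303 in PDGFRα+ cells and 0.833 in CD137+ cells). Ptprc, which encodes CD45 of leukocytes, had 8 of 8 regions higher, and 11 of 13 in the desert from Nr5a2 to Ptprc were lower. Mef2c, a muscle and neural transcription factor gene, was higher in 6 of 7 and its desert from Cetn3 lower in 9 of 10. Zfp608 was higher in 4 of 4 and the desert from Csnk1g3 lower in 14 of 14, that towards Gramd3 in 8 of 11. These genes were chosen after their values were seen. Over all genes that flank a desert with a distant region, 78.2% of 3182 regions inside the genes were lower (76.7 to 79.6), against 74.3% of 11419 in other protein-coding genes (73.5 to 75.1).

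Of the distant regions, 878 (19.9%) overlapped an lncRNA span, and these were less one-sided. Of them 721 (82.1%, 79.4 to 84.5) were lower, against 89.0% (87.9 to 90.0) of the 3515 regions in no gene span of any kind. The same order was seen at 100 to 200 kb from protein-coding genes, with 77.4% of 461 in lncRNA spans (73.4 to 81.0) and 86.9% of 1661 outside (85.2 to 88.5). At 200 to 500 kb the shares, 86.5% of 356 and 89.9% of 1427, had overlapping intervals. At the 47 regions over an lncRNA start, whose sequences include those shown above, 33 (70.2%, 56.0 to 81.3) were lower and 14 higher. Pseudogene spans held 21 regions, 16 of them lower.

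Among 17 lncRNA genes with at least 5 distant regions, 4 had every region lower and 4 had more higher than lower. Mir99ahg held the most, 11, with 10 lower, and Mir100hg held 8, all 8 lower. D5Ertd615e (5 of 5; mean level 0.182 in PDGFRα+ cells and 0.799 in CD137+ cells), 9630002D21Rik (5 of 5; 0.298 in PDGFRα+ cells and 0.837 in CD137+ cells) and Gm45968 (5 of 5) were lower throughout. Gm13986, between Rasgrp1 and the thrombospondin gene Thbs1, was higher in 5 of 5, with PDGFRα+ levels of 0.750 to 0.984 and CD137+ levels of 0.195 to 0.480. Gm36743, between Bbs9 and Bmper, was higher in 4 of 5. Morrbid, an lncRNA that controls survival of myeloid cells and lies beside the apoptosis gene Bcl2l11, was higher in 3 of 5. Gm30382, between Adgrl2 and Adgrl4, was higher in 5 of 9. Pvt1, the lncRNA next to Myc, was lower in 4 of 5. These lncRNAs were picked for their counts after the values were seen.

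Within 10 kb of 18 microRNA genes in 11 deserts lay 23 distant regions, of which 22 were lower in PDGFRα+, where 87.5% of all distant regions were lower, so the count is near that of distant regions at large. The exception lay 5688 bases from Mir6354 and had levels of 0.937 in PDGFRα+ cells and 0.383 in CD137+ cells. The cluster on chromosome 9 lies between Ubash3b and Gm40514, where 12 of 12 distant regions were lower (median 0.195 in PDGFRα+ cells and 0.774 in CD137+ cells). A region of 1583 bases and 50 cytosines, 41582286 to 41583868, begins 284 bases from the Mir125b-1 hairpin and had levels of 0.0709 in PDGFRα+ cells and 0.613 in CD137+ cells. Next to it followed regions with levels of 0.0965 and 0.0822 in PDGFRα+ cells against 0.698 and 0.516 in CD137+ cells. The region nearest to Mir100 lay 6497 bases away (0.187 in PDGFRα+ cells and 0.795 in CD137+ cells), and the one nearest to Mirlet7a-2 8562 bases away (0.275 in PDGFRα+ cells and 0.870 in CD137+ cells).

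The cluster on chromosome 16 showed the same direction. It lies between Usp25 and Cxadr, the gene of a junction protein that viruses use as a receptor, where 21 of 22 distant regions were lower (median of the lower ones 0.297 in PDGFRα+ cells and 0.732 in CD137+ cells). A region of 1431 bases and 52 cytosines, 77593969 to 77595399, lay 3537 bases from Mir99a and 4258 bases from Mirlet7c-1, with levels of 0.190 in PDGFRα+ cells and 0.715 in CD137+ cells. The region nearest to Mir125b-2, 2373 bases away, had levels of 0.131 in PDGFRα+ cells and 0.516 in CD137+ cells. Inside Mir99ahg a region of 1603 bases, 77499973 to 77501575, had levels of 0.107 in PDGFRα+ cells and 0.663 in CD137+ cells, and the exception, 77393613 to 77393930, had 0.934 in PDGFRα+ cells and 0.391 in CD137+ cells. Each cluster thus had a long region within 10 kb of a hairpin that was lower in PDGFRα+. These regions lay beside different genes, Mir125b-1 on chromosome 9 (1583 bases, 50 cytosines) and Mir99a and Mirlet7c-1 on chromosome 16 (1431 bases, 52 cytosines). The clusters were singled out after their values were seen, and microRNA levels were not measured here.

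The levels near other microRNA genes varied. At Mir216a, Mir216b and Mir216c, a single region within 6018 bases of each had levels of 0.0754 in PDGFRα+ cells and 0.624 in CD137+ cells. Near Mir135a-2, between Tmpo and Nedd1, 3 of 3 were lower, and the nearest had 0.489 in PDGFRα+ cells and 0.921 in CD137+ cells. A region 297 bases from Mir5118 had 0.0975 in PDGFRα+ cells and 0.713 in CD137+ cells.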

How the data were processed

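Whole-genome bisulfite sequencing gave 1 PDGFRα+ and 1 CD137+ library. The authors deposited a table of differentially methylated regions, on mm10 per the submitters' processing notes. Per the file headers it gives each library's methylation level as a fraction, their difference (CD140 minus CD137, used as the PDGFRα+ minus CD137+ difference), the count of cytosines and an area statistic, a score with no fixed range that was deposited with its sign. The sources used here do not give the aligner, the callers, their thresholds or the read depth, so levels carry no interval. From this table, distances to RefSeq GRCm38.p6 protein-coding spans were computed. They were checked against a brute-force search on 600 simulated regions, with 0 differences.

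Shares have Wilson 95% intervals and medians order-statistic 95% intervals. The members and gene lists were chosen with earlier results of these data known. Genes were named as flanks of the 15 deserts with most regions, of the 10 regions per direction with the largest absolute statistic (1 per desert), of the farthest region, of the fullest and emptiest deserts per Mb, and of up to 4 deserts per gene family. Others were named after their values were seen, and some that the rule names are not reported here. The work was done in Python 3.11.15 with pandas 2.3.3 and numpy 2.4.6; intervals came from scipy 1.17.1 and plots from matplotlib 3.10.9.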

Additional observations from a re-analysis of the deposited data

How the results depend on the processing

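The share of distant regions lower in PDGFRα+ ranged from 86.0% to 92.5% over the 17 alternatives run, and the median difference stayed negative in each alternative that gave one. The share was 86.0% with a distance minimum of 50000 bases, 90.0% with 200000 and 92.5% with 500000, and 91.8% (670 regions) with distance measured to every RefSeq gene of any kind. It was 89.2% with an absolute difference of at least 0.5, 89.4% with at least 10 cytosines, 89.4% with an absolute statistic above the median of all listed regions, and 89.5% weighted by length. Closer regions gave 77.9%, 76.0% and 76.8% under the same limits on difference, cytosines and statistic. The median difference was -0.519 with every RefSeq gene, -0.566 with the difference minimum, -0.510 with at least 10 cytosines and -0.518 with the statistic limit. The median density per 100 bases was 4.44 with 50000 bases, 3.96 with 500000, 4.18 with every RefSeq gene, 3.77 with the difference minimum and 4.48 with at least 10 cytosines. The fullest desert held 16 regions with 500000 bases and 17 with the difference minimum, both Zeb2 to Acvr2a. It held 10 (Gm7931 to Gm17824) with every RefSeq gene, and 18 (Runx1 to Setd4) with at least 10 cytosines and with the statistic limit. With at least 5 cytosines Adgrl2 to Adgrl4 led, with 26. Stricter limits leave fewer regions by construction. The other causes were not tested. Curated genes, the 10 regions near 0 and chromosome X were alternatives chosen after seeing the data. No paired analysis was possible because each group has 1 library. Read depth was not available here, so it cannot be said which differences it limits.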

Other observations

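On chromosome X, outside the regions described, 59 listed regions lay 100 kb or more from a protein-coding gene, of which 51 (86.4%, 75.5 to 93.0) were lower in PDGFRα+ and 8 higher. Of the X-linked regions closer to genes, 77.5% were lower. Deserts with 8 or more regions and the largest shares of higher ones were chosen after their values were seen. The first was Uaca to the corepressor gene Tle3 on chromosome 9 (5 higher, 4 lower). With 5 higher and 5 lower each followed Ndfip2 to the signalling inhibitor gene Spry2, Aldh8a1 to the glucocorticoid-induced kinase gene Sgk1, Serp2 to Lacc1, and Irf2bp2 to Tomm20. Gadd45g to Diras2 and Ly86 to Rreb1 had the same share, with 4 higher and 4 lower each. In the desert of Sgk1 the higher regions had median levels of 0.807 in PDGFRα+ cells and 0.378 in CD137+ cells, and the lower ones 0.442 in PDGFRα+ cells and 0.916 in CD137+ cells. In the desert beside Irf2bp2 the higher ones had 0.955 in PDGFRα+ cells and 0.211 in CD137+ cells, and the lower ones 0.144 in PDGFRα+ cells and 0.820 in CD137+ cells.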
